A study of Mus musculus with 32 samples.

Results

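Expression of 8 genes of the endoderm was followed across 32 arrays of mouse cells on the way to the germline. The 8 genes are the transcription factors Foxa2, Sox17, Gata4 and Gata6 and the markers Cer1, Afp, Apoa1 and Amn. They are 8 of 18193 genes that the platform annotation named by exactly 1 symbol per probe set, and 20 of 45037 probe sets belong to them. A gene's value is that of its brightest probe set, by the mean of the 32 arrays, and all 8 entered the test of 15497 genes. Testing required a mean of log2 4.05 or more, the 40th percentile of all values, in some group. Cer1 reached it only in the doxycycline-treated parental cells and Apoa1 only in the embryonic epiblast and the embryonic germ cells, so these genes were tested because they were high there.

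The study asked how primordial germ cell-like cells (PGCLCs, the cultured counterpart of the precursors of eggs and sperm) made by transcription factors compare with those made by cytokines. It used 16 groups of 2 arrays, which the submitters call biological duplicates. Whether the duplicates were separate cultures is not labelled. A p-value here reflects only how far the 2 arrays within a group differ, pooled over the 16 groups and moderated across genes. That spread may be technical. Amplified cDNA of about 20000 cells was hybridised to Affymetrix mouse arrays.

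The 22 new arrays come from male embryonic stem cells (ESCs) of a mixed C57BL/6 and 129 background. All carry Blimp1-mVenus and stella-ECFP reporters and the doxycycline-responsive activator Rosa26-rtTA. These ESCs were turned into epiblast-like cells (EpiLCs) for 36 h and aggregated at 2000 cells per well. Cytokine-induced cells (Ck-PGCLCs, days 2 and 4) received 500 ng/ml each of BMP4 and BMP8A, with 100 ng/ml SCF, 50 ng/ml EGF and 1000 U/ml LIF. Factor-induced cells received 1.5 μg/ml doxycycline, which switched on piggyBac transgenes from a tet-responsive minimal CMV promoter. The transgenes were Blimp1, Prdm14 and Tfap2c together (BP14A, days 2 and 4), Blimp1 and Prdm14 (BP14), Prdm14 and Tfap2c (P14A) or Prdm14 alone (P14), the last 3 on day 2. Parental cells without these transgenes were given doxycycline for 2 days as the negative control. BP14A ESCs in 2i+LIF, and the same line after 2 days of doxycycline sorted for stella-ECFP, complete the new groups.

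The 10 earlier arrays hold C57BL/6 samples. They are 2i+LIF ESCs, 48 h EpiLCs and day 6 Ck-PGCLCs, all male with Blimp1-mVenus and stella-ECFP, epiblast of embryonic day (E) 5.5 of unknown sex, and stella-EGFP germ cells (PGCs) of E9.5 of unknown sex. Tests were run among the new arrays or among the earlier ones; where a level is set beside arrays of the other kind, it is a description with no test. Arrays of 1 group correlated at 0.966 to 0.986 over the 15497 tested genes. The germ cell gene Dppa3 (stella) stood at log2 12.50 to 12.99 in the factor-induced cells from EpiLCs and at 5.43 to 6.10 in the parental cells, and the epiblast gene Fgf5 at 10.11 to 10.19 in the E5.5 epiblast.

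Endoderm forms in several steps. In the blastocyst, Gata6, Gata4 and Sox17 mark the primitive endoderm, which gives rise to the visceral endoderm that wraps the epiblast and feeds it. At gastrulation, Nodal signalling at the anterior primitive streak switches on Foxa2 and Sox17 in definitive endoderm, the source of the gut, liver and pancreas. Foxa2 is a pioneer factor that also marks the node and axial mesoderm. Sox17 is an HMG-box factor, also used by blood vessels and, in human rather than mouse, central to germ cell specification. Gata4 and Gata6 are zinc-finger factors shared by endoderm and heart mesoderm. Cer1 is a secreted antagonist of Nodal, BMP and Wnt made by the anterior visceral and early definitive endoderm. Afp and Apoa1 encode a plasma carrier protein and the main protein of high-density lipoprotein, and both are made by visceral endoderm and fetal liver. Amn (amnionless) binds cubilin and is needed for endocytosis by the visceral endoderm.

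Promoters of 5 of the 8 genes were at hand from RefSeq (GRCm38.p6), from 250 bases before to 50 after each annotated start. Those of Cer1 and Foxa2, whose mRNAs were both highest in the parental cells, and of Apoa1 and Afp, highest in embryo samples (Afp on 4 of its 5 probe sets), are shown from 5′ to 3′ of the gene. Capitals mark matches, on either strand, to the FOXA motifs TGTTTGC and TGTTTAC, the GATA motifs AGATAA and TGATAA, the HNF1 motif GTTAAT, the HNF4 motif CAAAGTCCA and the SOX motifs ACAATGG and ACAAAGG.
Cer1, chr4:82885102-82885401, minus strand: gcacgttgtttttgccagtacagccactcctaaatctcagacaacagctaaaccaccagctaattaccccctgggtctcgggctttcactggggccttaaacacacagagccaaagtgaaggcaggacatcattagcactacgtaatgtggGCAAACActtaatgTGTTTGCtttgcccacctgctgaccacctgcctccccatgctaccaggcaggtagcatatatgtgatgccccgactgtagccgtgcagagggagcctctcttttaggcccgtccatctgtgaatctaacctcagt
Foxa2, chr2:148045415-148045714, minus strand: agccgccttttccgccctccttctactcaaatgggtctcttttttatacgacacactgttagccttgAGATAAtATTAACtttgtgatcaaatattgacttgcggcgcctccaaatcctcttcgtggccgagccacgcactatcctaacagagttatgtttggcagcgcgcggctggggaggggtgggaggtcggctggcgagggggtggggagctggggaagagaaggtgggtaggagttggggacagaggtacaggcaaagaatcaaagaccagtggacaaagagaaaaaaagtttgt
Afp, chr5:90490464-90490763, plus strand: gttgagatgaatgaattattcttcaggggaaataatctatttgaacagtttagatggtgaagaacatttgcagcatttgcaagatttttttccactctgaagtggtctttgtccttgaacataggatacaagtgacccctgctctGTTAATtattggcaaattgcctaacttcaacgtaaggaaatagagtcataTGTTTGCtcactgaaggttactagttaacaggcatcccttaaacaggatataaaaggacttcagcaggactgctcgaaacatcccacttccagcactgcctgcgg
Apoa1, chr9:46228380-46228679, plus strand: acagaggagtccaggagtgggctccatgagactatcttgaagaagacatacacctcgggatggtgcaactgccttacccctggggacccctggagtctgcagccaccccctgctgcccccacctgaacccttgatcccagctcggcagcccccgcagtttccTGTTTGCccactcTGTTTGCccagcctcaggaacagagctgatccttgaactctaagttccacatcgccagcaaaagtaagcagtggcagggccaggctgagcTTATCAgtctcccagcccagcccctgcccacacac

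TGTTTGC occurred at -99 (minus strand) and -85 in Cer1, at -88 and -75 in Apoa1 and at -55 in Afp, counted from the start site. It is found in 5.07% of 32851 RefSeq promoters of the same length. Afp also held GTTAAT at -105 and Apoa1 TGATAA at 15 on the minus strand, motifs of 7.10% and 9.05% of promoters. The Foxa2 window held AGATAA (11.2% of promoters) at -183 and GTTAAT on the minus strand at -176. The windows of 2 other Foxa2 starts and of Amn held none of these letters. These are matches of letters and not measured binding.

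Foxa2 was high in 1 group alone. The parental cells on doxycycline measured log2 9.93 and 10.52, while the other 30 arrays lay between 3.25 and 5.81. No array of another group came near: the next highest groups were the E5.5 epiblast at 5.81 and 5.71 and the E9.5 PGCs at 5.38 and 4.84. EpiLCs at 36 h, from which the parental cells started, measured 4.06 and 3.81. The rise over 2 days was 6.29 (SE 0.34, adjusted p 1.26e-10) on the log2 scale. The EpiLC mean, 3.93, lay under the filter of 4.05, as did that of BP14A cells on day 2, 3.59, so the size of a difference from either is approximate.

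Foxa2 was low in cytokine-induced cells and with each set of factors. Ck-PGCLCs measured 4.24 and 4.60 on day 2 and 4.49 and 3.86 on day 4, and the day 2 mean differed from the parental mean by -5.81 on the log2 scale (adjusted p 2.08e-09). BP14A cells measured 3.93 and 3.25 on day 2 and 3.71 and 4.69 on day 4. BP14 cells stood at 4.93 and 5.0, P14A at 4.52 and 4.71, and P14 at 4.08 and 5.10. Against the parental cells the change was -6.64 for BP14A, -5.27 for BP14, -5.61 for P14A and -5.64 for P14 (SE 0.34 for each). These 4 comparisons share the same 2 parental arrays, so they are not independent, and differences between the factor sets were not tested. Each of these calls held in all 14 other settings tried.

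**Figure D1:**
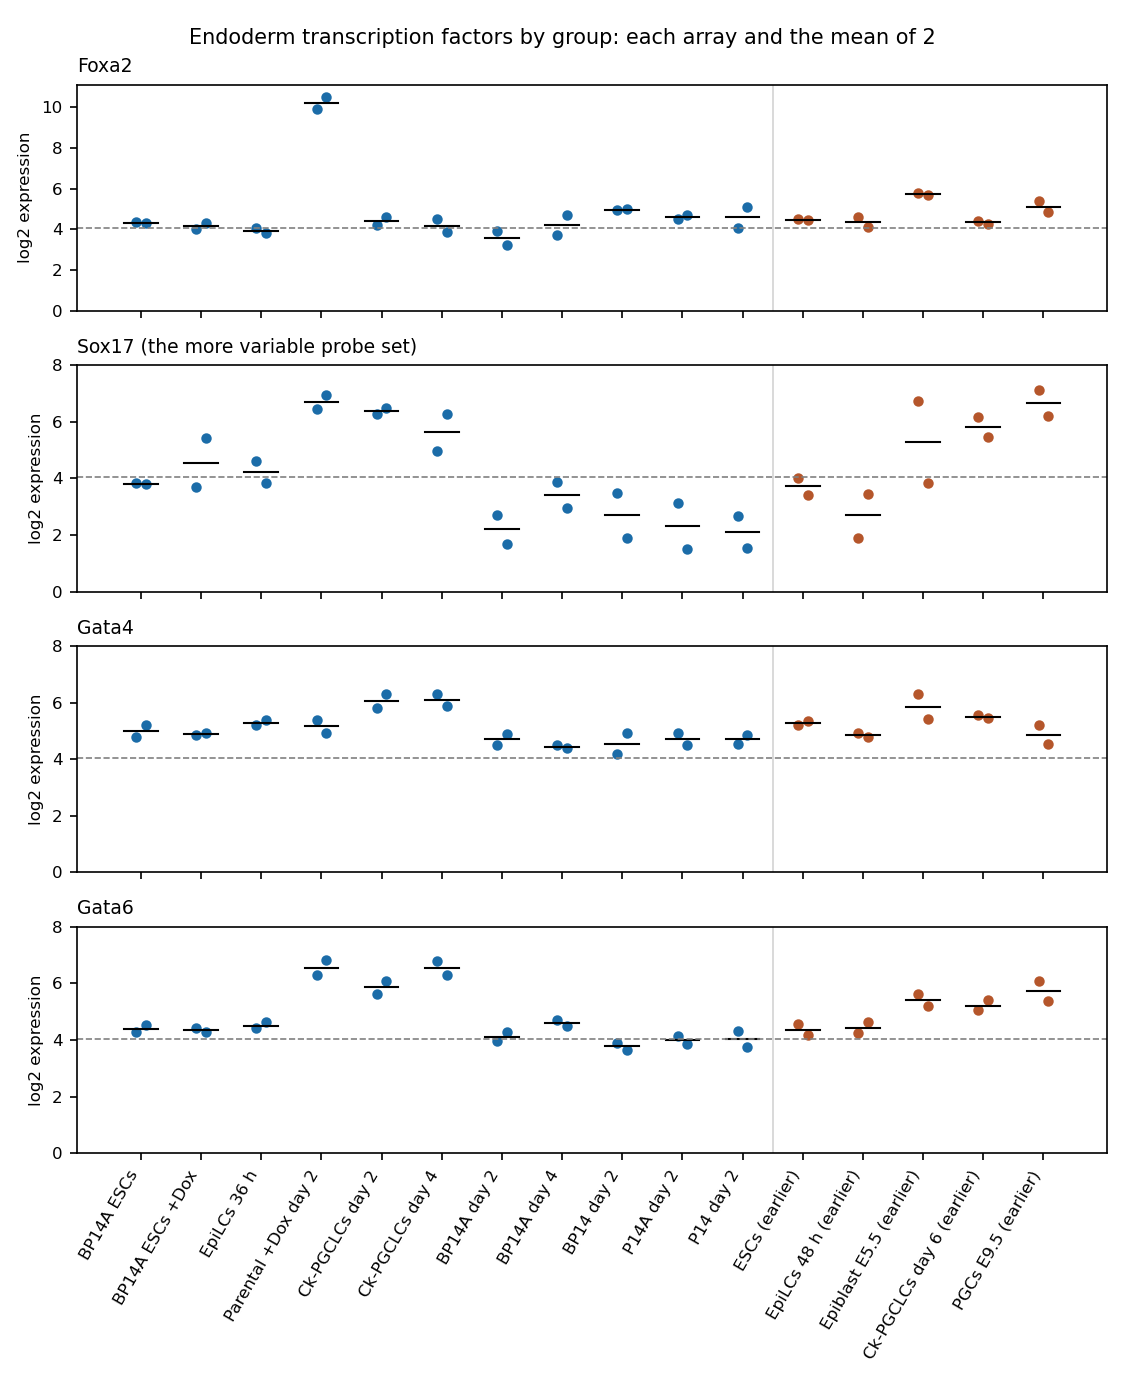
Log2 expression of Foxa2, Sox17 (probe set 1429177_x_at), Gata4 and Gata6 (vertical axes) in the 16 groups (horizontal axis), with a point for each array, a bar for the mean of 2 and a dashed line at the filter of log2 4.05. New arrays are blue and earlier arrays brown. Foxa2 reaches 9.93 or more only in the parental cells, while Gata6 is also raised in Ck-PGCLCs.

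Gata6 rose on both routes that lacked the transgenes. It measured 6.31 and 6.82 in parental cells, 5.63 and 6.09 in Ck-PGCLCs on day 2, 6.80 and 6.31 on day 4, and 4.41 and 4.62 in the 36 h EpiLCs. The arrays of neither route overlapped with the EpiLCs. The rise was 2.05 in parental cells (SE 0.28, adjusted p 1.73e-05) and 1.35 in Ck-PGCLCs on day 2 (SE 0.28, adjusted p 0.0011). The parental and day 2 Ck-PGCLC means differed by -0.70, with a 95% interval from -1.28 to -0.12, which did not pass the test across genes (adjusted p 0.200).

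All 5 groups of factor-induced cells from EpiLCs kept Gata6 near the filter, from 3.65 to 4.70 over their 10 arrays. The change against parental cells was -2.44 for BP14A, -2.78 for BP14, -2.55 for P14A and -2.52 for P14. Against Ck-PGCLCs, BP14A cells differed by -1.74 on day 2 (adjusted p 9.99e-05) and by -1.96 on day 4 (adjusted p 0.000113). In the earlier arrays Gata6 measured 5.05 and 5.40 in day 6 Ck-PGCLCs, 6.08 and 5.37 in E9.5 PGCs, 5.64 and 5.19 in epiblast, 4.26 and 4.63 in 48 h EpiLCs and 4.57 and 4.17 in ESCs. The epiblast exceeded ESCs by 1.04 (adjusted p 0.00745), a call lost without epiblast replicate 1, with a value of 0.81, without ESC replicate 2, and in the fit of the earlier arrays alone. The other Gata6 probe sets, 1425463_at and 1443081_at, stayed under the filter in every group and were not tested.

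Gata4 set the cytokine route apart from the factor route. Ck-PGCLCs measured 5.82 and 6.29 on day 2 and 6.29 and 5.89 on day 4, above BP14A cells at 4.52 and 4.88 on day 2 and 4.49 and 4.41 on day 4. BP14A cells were lower, with a difference of -1.35 on day 2 (SE 0.30, adjusted p 0.00228) and -1.64 on day 4 (SE 0.30, adjusted p 0.00125). Neither route differed from EpiLCs, at 5.20 and 5.39, by a change that passed the test. The change on day 2 was 0.76 in Ck-PGCLCs (interval 0.13 to 1.39) and -0.59 in BP14A cells (interval -1.22 to 0.04). Parental cells, at 5.38 and 4.93, lay at the level of EpiLCs, unlike for Gata6. Both Gata4 calls were lost when the 2 Gata4 probe sets were averaged; the other set, 1418864_at, was at most 3.23 on any array.

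Sox17 gave different pictures on its 2 probe sets, which correlated at 0.79 over 16 group means. The set with the higher mean, 1421657_a_at, spanned only 4.75 to 6.31 over all arrays. Its highest group was the parental cells, at 6.27 and 6.22. P14 cells, at 5.04 and 5.31, were lower, with a difference of -1.07 (SE 0.23, adjusted p 0.00156), a call lost without P14 replicate 1. The corresponding differences were -0.86 in BP14A (adjusted p 0.00828), -0.93 in BP14 (0.00505) and -0.71 in P14A (0.0297), each short of 2-fold.

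The other Sox17 set, 1429177_x_at, ranged from 1.49 to 7.11 and separated the routes. Parental cells measured 6.47 and 6.95, Ck-PGCLCs 6.28 and 6.49 on day 2 and 4.98 and 6.28 on day 4, and EpiLCs 4.61 and 3.84. Factor-induced cells from EpiLCs lay between 1.49 and 3.88 on all 10 arrays, and only BP14A day 4 replicate 1, at 3.88, was not below both EpiLC arrays. Tested over 32702 probe sets, the set changed against parental cells by -4.5 with BP14A, -4.01 with BP14, -4.4 with P14A and -4.6 with P14 (SE 0.85). The means of these factor-induced cells, 2.11 to 2.69, lay under the filter of 4.05, so the size of each difference is not well measured. BP14A cells were lower than Ck-PGCLCs on day 2, by -4.18 (adjusted p 0.00163). In these comparisons 5.72%, 5.09%, 5.29%, 5.32% and 5.42% of probe sets were lower. The rises over EpiLCs, 2.48 in parental cells and 2.16 in Ck-PGCLCs, did not pass (adjusted p 0.0522 and 0.0912). Day 6 Ck-PGCLCs, at 6.18 and 5.47, exceeded 48 h EpiLCs, at 1.91 and 3.46, by 3.14 (adjusted p 0.0101; 7.74% of probe sets rose). PGCs of E9.5 gave the highest value, 7.11, with 6.22 on the other array. The use of every probe set was chosen after the data were seen.

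Cer1 was dim everywhere and highest in the parental cells, at 4.45 and 4.96 on probe set 1450256_at and 5.20 and 4.65 on 1450257_at. EpiLCs measured 2.69 and 1.85 on the former set. The rise was 2.43 (SE 0.69, adjusted p 0.0137), and 3.62 (SE 0.90, adjusted p 0.00825) on the latter, where 5.72% of probe sets rose. On 1450256_at, day 2 Ck-PGCLCs, at 1.79 and 2.41, differed from parental cells by -2.60 (adjusted p 0.0290). BP14A cells, at 2.11 and 2.74, differed by -2.27 (adjusted p 0.0200). On 1450257_at the difference of Ck-PGCLCs from parental cells was -2.37 and did not pass (adjusted p 0.229). In BP14, P14A and P14 cells Cer1 differed by -1.67, -1.33 and -1.92 on 1450256_at, none of which passed. With the replicate number as a block, BP14 (adjusted p 0.0404) and P14 (adjusted p 0.0199) did. Counted by any probe set of the gene, Cer1 was lower in P14A and P14 but not in BP14. In these comparisons 5.29%, 5.32% and 5.09% of probe sets were lower. Each of the 3 called differences on 1450256_at was lost without parental replicate 2. The calls against Ck-PGCLCs and BP14A were also lost without parental replicate 1, and each was lost without at least 1 array of the other group. Both Cer1 probe sets reached the filter only in the parental cells, so the filter favoured calls against that group.

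Counted by gene, 3 of the 8 genes rose from EpiLCs to parental cells (Foxa2, Gata6 and Cer1) and 0 fell, where 7.23% of tested genes rose. Cer1 was tested only because its parental mean passed the filter. Its place in this count, and in the counts against parental cells below, was favoured by that rule. In Ck-PGCLCs on day 2 only Gata6 rose, where 8.42% of genes did. BP14A cells on day 2 differed from EpiLCs in 0 of the 8, where limma called 11.6% of genes and 0 of the 8 had an unadjusted p under 0.05. Against parental cells 3 were lower in BP14A (7.25% of genes were), 2 in BP14 (6.43%), 2 in P14A (6.81%) and 3 in P14 (6.60%). Between the non-factor groups, Foxa2 and Cer1 were lower in day 2 Ck-PGCLCs than in parental cells, where 1.41% of genes were lower. Against Ck-PGCLCs, 2 of the 8 were lower in BP14A on day 2 and 2 on day 4, where 7.01% and 2.74% of genes were lower. The median change of the 8 from EpiLCs was 0.34 in parental cells, 0.27 in Ck-PGCLCs and -0.04 in BP14A cells, against -0.05, -0.04 and -0.02 over all genes tested.

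**Figure D2:**
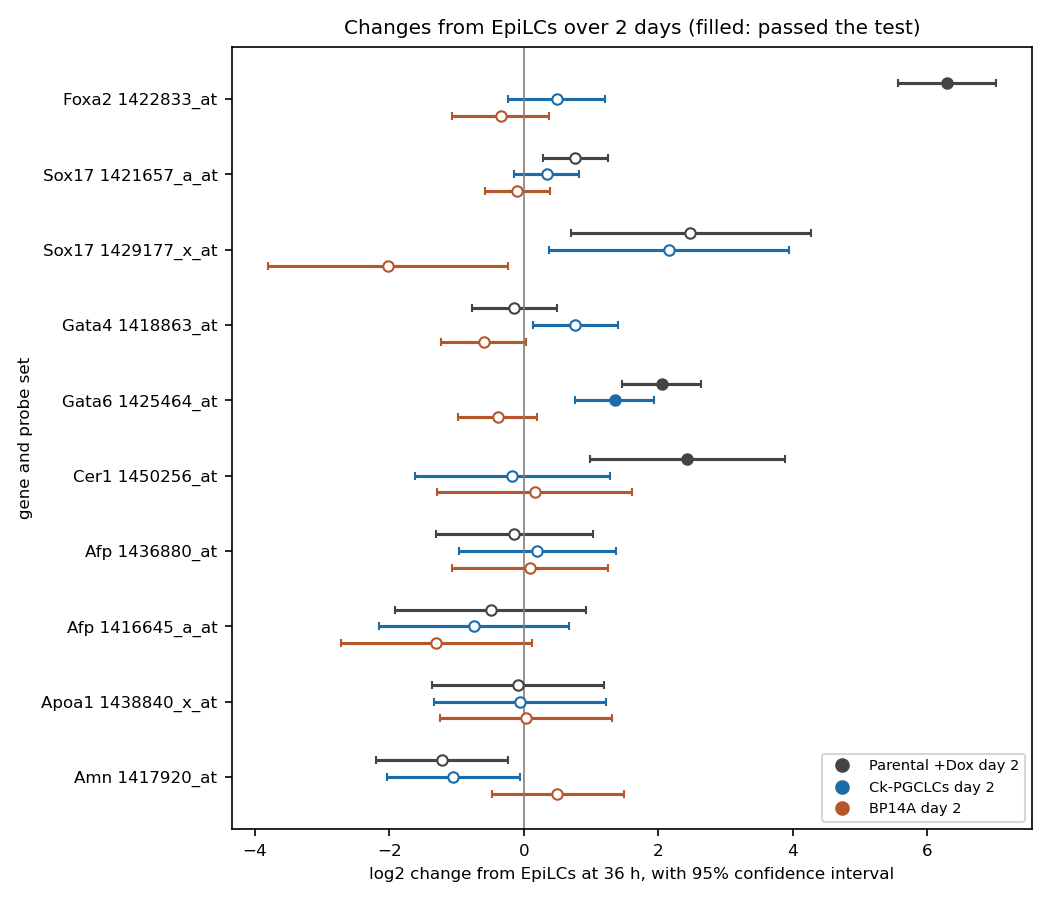
Log2 change from 36 h EpiLCs with its 95% confidence interval (horizontal axis) for 10 probe sets of the 8 genes (vertical axis) in parental cells, Ck-PGCLCs and BP14A cells on day 2, from the fit over 32702 probe sets. Filled points passed the test. Foxa2 at 6.29 in parental cells lies apart from the others, and 0 points of BP14A are filled.

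Other genes of early endoderm moved in the same groups. Of 16 tested genes of a definitive endoderm and gut list, 9 rose in parental cells and 0 fell (median change 2.90), where 7.23% and 5.63% of all genes did. Among these were Lhx1 by 7.78, Trh by 5.74, Gsc by 5.5, Foxa1, a relative of Foxa2, by 3.33 and the BMP antagonist Chrd by 2.98. In Ck-PGCLCs on day 2, 7 rose and 1 fell (median 0.50), where 8.42% and 6.06% of all genes did. The risers include Lhx1 by 7.07, Gsc by 2.72 and the posterior factor Cdx2 by 8.0. Lhx1, Gsc, Eomes and Mixl1 also mark the primitive streak, so the list is not specific to endoderm. Foxa1, Gsc, Eomes and Chrd were lower in Ck-PGCLCs than in parental cells, with differences of -2.87, -2.78, -1.84 and -3.14. In BP14A cells 9 of the 16 were below parental cells (median -2.91), as were 7.25% of all genes. It was also 9 of the 16 in BP14, P14A and P14 cells (medians -2.73, -2.55 and -2.68), beside 6.43%, 6.81% and 6.60% of all genes. From day 2 to day 4 of the cytokine route 8 of the 16 fell (6.84% of all genes did), Mixl1 with a change of -6.65 and Lhx1 of -4.77, while Foxa2, Gata4, Gata6 and Sox17 had no call.

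Heart and lateral mesoderm express Gata4 and Gata6 as endoderm does, and some of their markers rose on the cytokine route. In day 2 Ck-PGCLCs 5 of 11 rose over EpiLCs and 0 fell (8.42% and 6.06% of all genes), with Hand1 up by 6.38 and Isl1 by 5.10. In parental cells 1 rose, Pdgfrb by 5.33, and 1 fell, Myl7, by -1.63, shares close to those of all genes (7.23% and 5.63%). From day 2 to day 4 of the cytokine route 4 of the 11 fell and 0 rose (6.84% and 5.68% of all genes), while Gata4 changed by 0.03 and Gata6 by 0.70, neither of which passed. The list's summed linear level was 3277 to 3907 in day 2 Ck-PGCLCs, 995.9 to 1015 on day 4 and 685.6 to 689.8 in parental cells. It was 441.4 to 445.6 in 36 h EpiLCs but 1517 to 1685 in BP14A ESCs, so a raised sum is not particular to mesoderm. In bulk samples, more cells of a type and more RNA per cell cannot be told apart, and the part of mesoderm cells in the Gata4 and Gata6 values was not tested. Some endothelial cells use Sox17. Of the endothelial and blood markers, 5 of 11 rose in Ck-PGCLCs from day 2 to day 4 (5.68% of all genes did). Pecam1 was up by 3.54 and Tie1 by 2.93. This list's summed linear level was 283.8 to 288.1 on day 2 and 625.3 to 747 on day 4. It was 534 to 582.1 in BP14A ESCs and 633.9 to 769.9 in the earlier ESCs, so a raised sum is not particular to endothelium or blood.

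The visceral endoderm genes Afp, Apoa1 and Amn followed another pattern and were highest in the embryo samples. Apoa1 measured 9.81 and 7.27 in E5.5 epiblast and 5.56 and 5.63 in E9.5 PGCs, while the other 28 arrays lay between 2.68 and 4.32. Its epiblast arrays differed by 2.54 and still lay above every other array. The epiblast exceeded ESCs by 5.59 (SE 0.61, adjusted p 6.32e-07) and 48 h EpiLCs by 4.58 (adjusted p 5.9e-05), and its 3 other probe sets gave 6.50 to 7.29 and 5.08 to 6.86. PGCs differed from epiblast by -2.95 (adjusted p 0.000972). Day 6 Ck-PGCLCs, at 3.48 and 3.94, differed from PGCs by -1.89 (adjusted p 0.0475; 3.46% of genes were lower). That last call was lost in 7 of 14 other settings, among them the omission of any of the 4 arrays, with values from -2.61 to -1.66.

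In cultured cells the Apoa1 probe sets did not follow each other. On 1419233_x_at BP14A cells on day 4 measured 4.29 and 4.74 against 0.00 and 2.00 in Ck-PGCLCs, a difference of 3.52 (adjusted p 0.0293; 2.54% of probe sets were higher), while the brightest set gave 4.26 and 2.89 against 3.90 and 3.79. The 5′ minus 3′ signal of Gapdh, a measure of RNA or cDNA length, was -4.66 and -2.99 in these BP14A arrays. In the Ck-PGCLCs it was -0.47 and -1.62. The same measure of Actb did not share this order, at -2.28 and -2.96 in BP14A and -2.82 and -3.04 in the Ck-PGCLCs. The part of RNA or cDNA length in the Apoa1 difference was not tested.

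Afp shows how much the choice of probe set decides. The set with the highest mean, 1436880_at, was flat: its group means ran from 3.50 to 4.76 and no comparison called it. The 4 other sets correlated at 0.90 to 0.97 with each other and at -0.05 to 0.09 with 1436880_at. On 1416645_a_at the epiblast measured 8.59 and 5.72 and E9.5 PGCs 8.37 and 8.19, whereas the other 28 arrays lay between 1.12 and 3.36. The 4 sets reached the filter only in epiblast and PGCs, so they were tested because they were high there. They gave epiblast over ESCs as 3.49 to 6.55 and epiblast over 48 h EpiLCs as 3.09 to 4.80, all called, where 6.79% and 1.44% of probe sets were higher. The difference of day 6 Ck-PGCLCs from PGCs was -6.28 to -4.79 over the 4 sets, all called, where 2.51% of probe sets were lower. These values rest on a reading of all probe sets made after the data were seen, and by the chosen set Afp had no call.

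**Figure D3:**
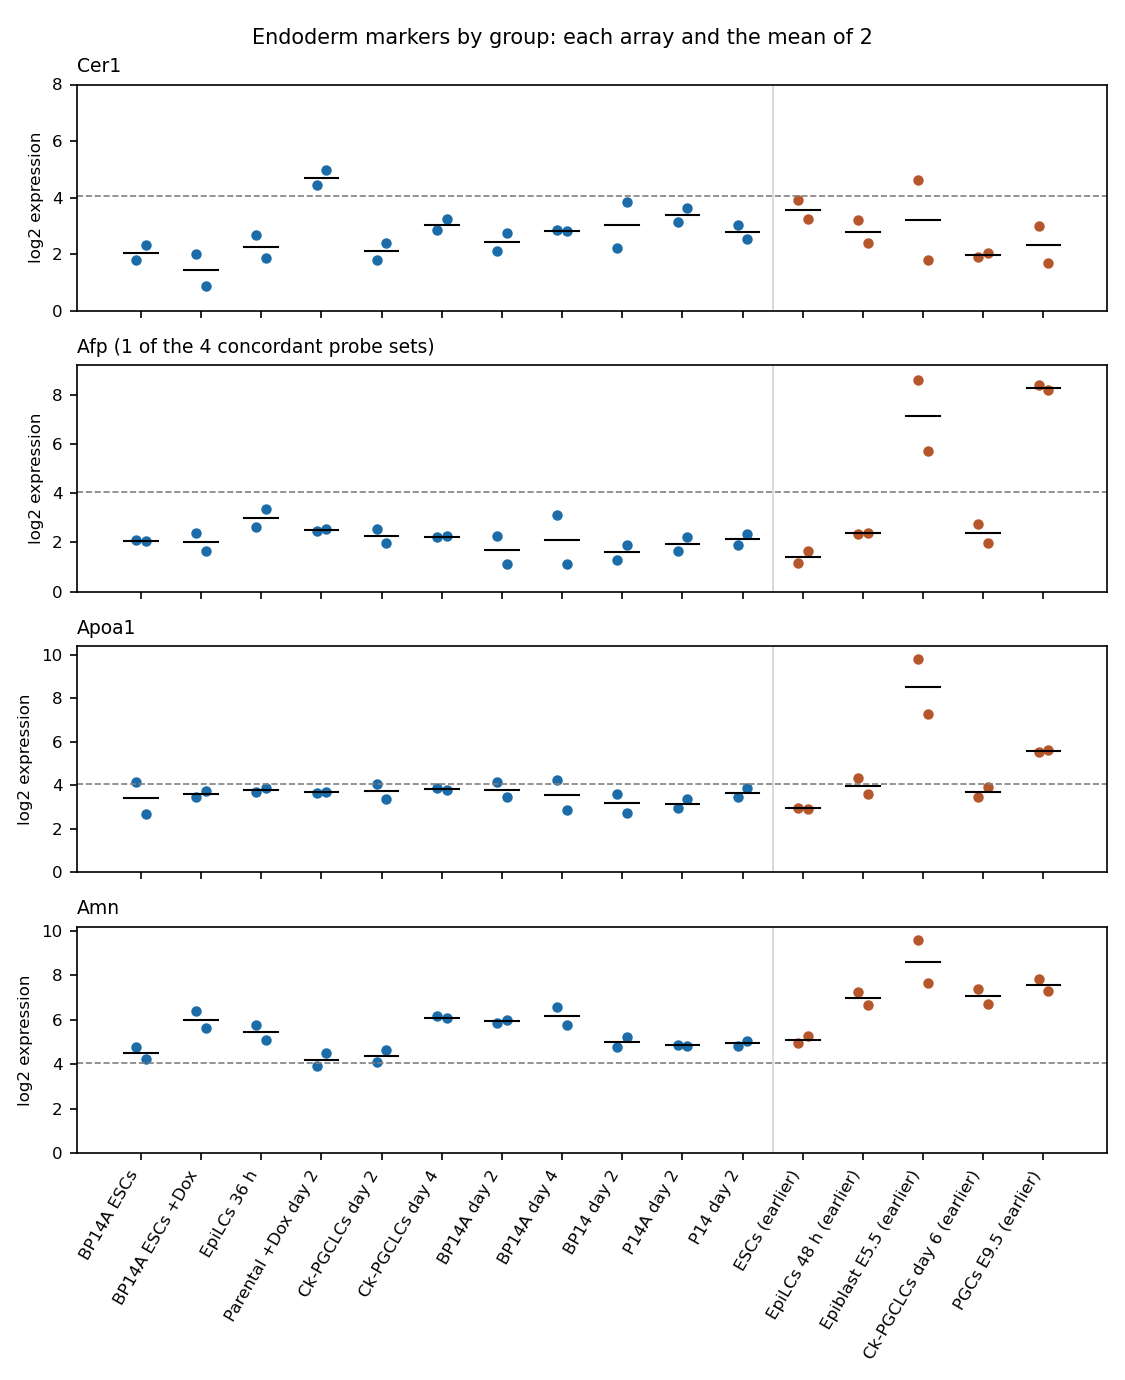
Log2 expression of Cer1, Afp (probe set 1416645_a_at), Apoa1 and Amn (vertical axes) in the 16 groups (horizontal axis), with points, bars, dashed line and colours for arrays, means, filter and new or earlier arrays. Afp and Apoa1 exceed the filter on both arrays only in the E5.5 epiblast and E9.5 PGCs.

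**Figure D4:**
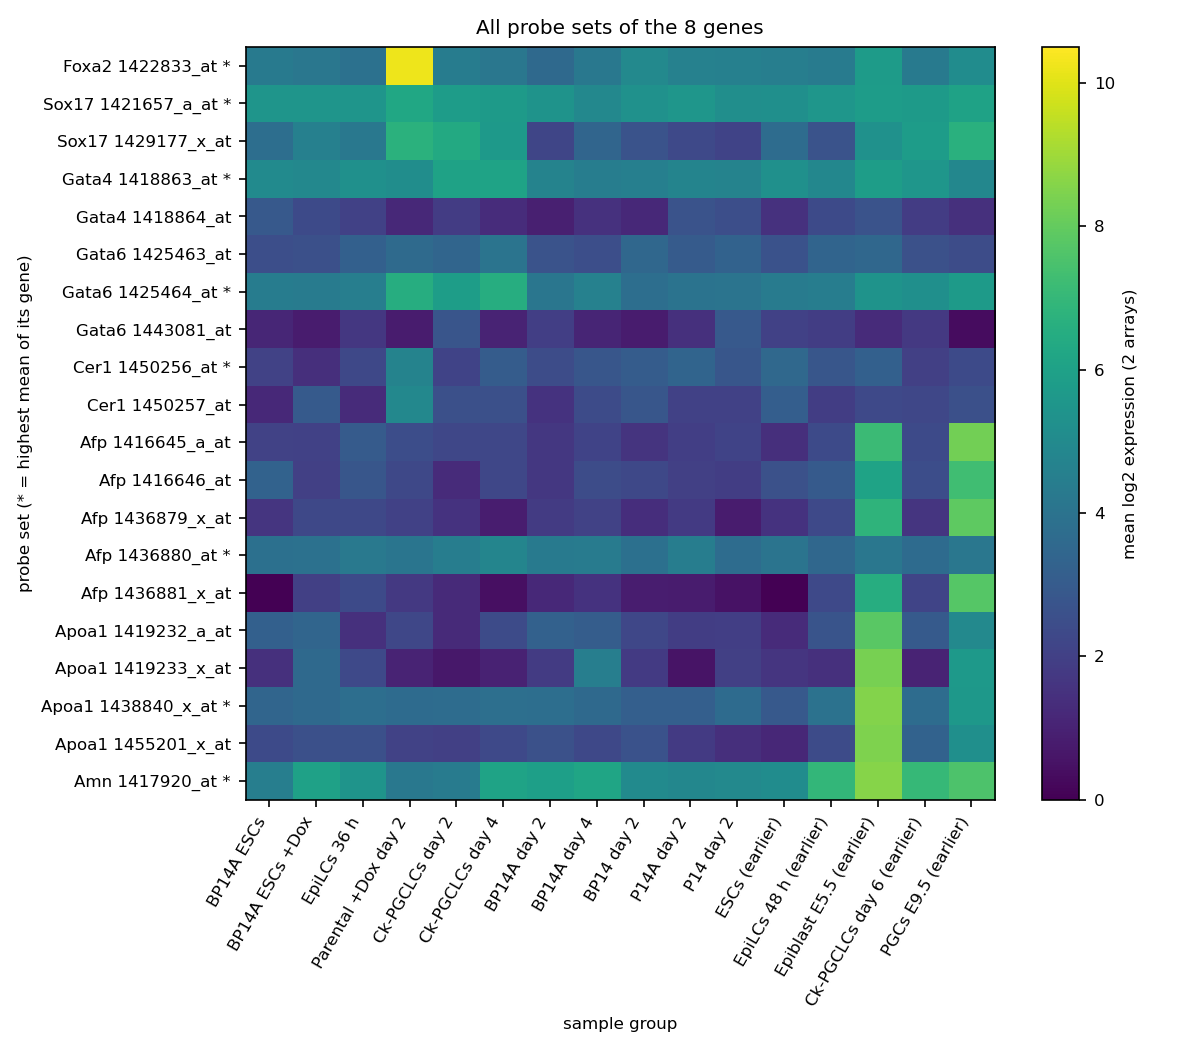
Mean log2 expression (colour) of all 20 probe sets of the 8 genes (rows; a star marks the highest mean of its gene) in the 16 groups (columns). The starred Afp set stays between 3.50 and 4.76 while the other 4 are bright in epiblast and PGCs, and the starred Sox17 set varies less than 1429177_x_at.

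Amn was above the filter in all 16 group means. It measured 9.58 and 7.64 in epiblast, 7.85 and 7.31 in PGCs, 7.38 and 6.72 in day 6 Ck-PGCLCs, 7.24 and 6.68 in 48 h EpiLCs and 4.95 and 5.26 in ESCs. Epiblast exceeded ESCs by 3.51 (adjusted p 7.83e-06) and 48 h EpiLCs by 1.65 (adjusted p 0.0294), and 48 h EpiLCs exceeded ESCs by 1.85 (adjusted p 0.00587; 7.26% of genes were higher). The comparison of epiblast with EpiLCs was lost without epiblast replicate 1, at 0.68, and without EpiLC replicate 2. The comparison of EpiLCs with ESCs was lost without EpiLC replicate 1. Both were also lost in the fit of the earlier arrays alone.

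In the new arrays Amn was lowest in the parental cells, at 3.93 and 4.49, which overlapped with day 2 Ck-PGCLCs and BP14A ESCs. BP14A cells on day 2, at 5.87 and 5.98, exceeded parental cells by 1.72 (adjusted p 0.00976, with 6.63% of genes higher). They exceeded Ck-PGCLCs on day 2, at 4.11 and 4.65, by 1.55 (adjusted p 0.0210, with 5.55% of genes higher). EpiLCs at 36 h measured 5.75 and 5.10. The change from EpiLCs was -1.22 in parental cells (interval -2.19 to -0.24) and -1.05 in day 2 Ck-PGCLCs (interval -2.02 to -0.07). In BP14A cells it was 0.50 (interval -0.47 to 1.48). None of these passed (adjusted p 0.0656, 0.113 and 0.539), so the excess of BP14A cells was not a called rise from EpiLCs. By day 4 Ck-PGCLCs had risen from day 2 by 1.72 to 6.15 and 6.06 (adjusted p 0.0107, with 5.68% of genes higher). BP14A cells on day 4 stood at 6.57 and 5.78. The difference between the routes in the change from day 2 to day 4 was -1.48 and did not pass (adjusted p 0.155). BP14 cells stood at 4.78 and 5.23, P14A at 4.88 and 4.84 and P14 at 4.82 and 5.06, with no call against parental cells. In BP14A ESCs Amn measured 4.79 and 4.24, and 6.41 and 5.61 after doxycycline and the sort for stella-ECFP, a difference of 1.49 (adjusted p 0.0329), where 5.51% of genes rose; of the 8 genes it alone changed. Each of these 4 Amn calls was lost on leaving out 1 array: BP14A replicate 2 or parental replicate 1, either BP14A array or Ck-PGCLC day 2 replicate 1, Ck-PGCLC day 2 replicate 1 or day 4 replicate 1, and either BP14A ESC array or replicate 1 with doxycycline.

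Counted over the earlier arrays, 4 of the 8 genes were higher in epiblast than in ESCs (7.58% of genes were) and 3 than in 48 h EpiLCs (1.45%). Besides Apoa1 and Amn these include Foxa2, by 1.27 over ESCs (adjusted p 0.00777) and 1.38 over EpiLCs (adjusted p 0.0146), the latter lost without either epiblast array or EpiLC replicate 2. PGCs were lower than epiblast in 1 of 8, Apoa1 (6.90% of genes were lower). Apoa1 was tested only because its epiblast and PGC means passed the filter, so its place in each of these counts was favoured by that rule.

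Among the gene lists, the 2 epiblast arrays stood apart most in the visceral endoderm genes, though not in these alone. Replicate 1 exceeded replicate 2 by at least 2-fold in 11 of 17 tested probe sets of the 8 genes. It did so in 9 of 19 genes of a visceral endoderm list and in 4.67% of all tested genes. The 17 sets hold 5 of Afp and 4 of Apoa1, so they are not separate genes, while 4.67% is a share of genes. On the brightest set of each gene, only Apoa1, Amn and Cer1 differed this far. Sox17 measured 6.75 and 3.85 on 1429177_x_at and 6.17 and 5.41 on 1421657_a_at, the same order as Apoa1 and Amn and the 4 variable Afp sets. Cer1 measured 4.63 and 1.81 on 1450256_at but 1.75 and 2.89 on 1450257_at, the 1 probe set of the 17 that was higher on replicate 2 by 2-fold or more. Foxa2, at 5.81 and 5.71, and the 16 genes of the definitive endoderm list (median difference 0.05) did not follow. Of the primitive and parietal endoderm list, 14 of 16 genes were higher on replicate 1 (median 0.67), 1 of them by 2-fold. So were 8 of 8 trophoblast genes (median 0.34), 0 of them by 2-fold. For the visceral endoderm list it was 17 of 19 (median 0.83), and the median over all genes was 0.01. The heart and lateral mesoderm list had a median of 0.27 and the endothelial and blood list of -0.04. The visceral endoderm list's summed linear level was 3714 to 7695 in the epiblast arrays, 6327 to 7219 in ESCs and 6357 to 9088 in 48 h EpiLCs. By this sum, on which bright genes weigh most, the epiblast arrays were not both above them. The list's mean log2 level was 6.15 to 7.46 in epiblast, 5.60 to 5.75 in ESCs and 5.87 to 5.95 in EpiLCs. Without replicate 1 the epiblast still exceeded ESCs in Apoa1 by 4.32 and in Amn by 2.53. The part of visceral endoderm cells in the epiblast samples was not tested.

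**Figure D5:**
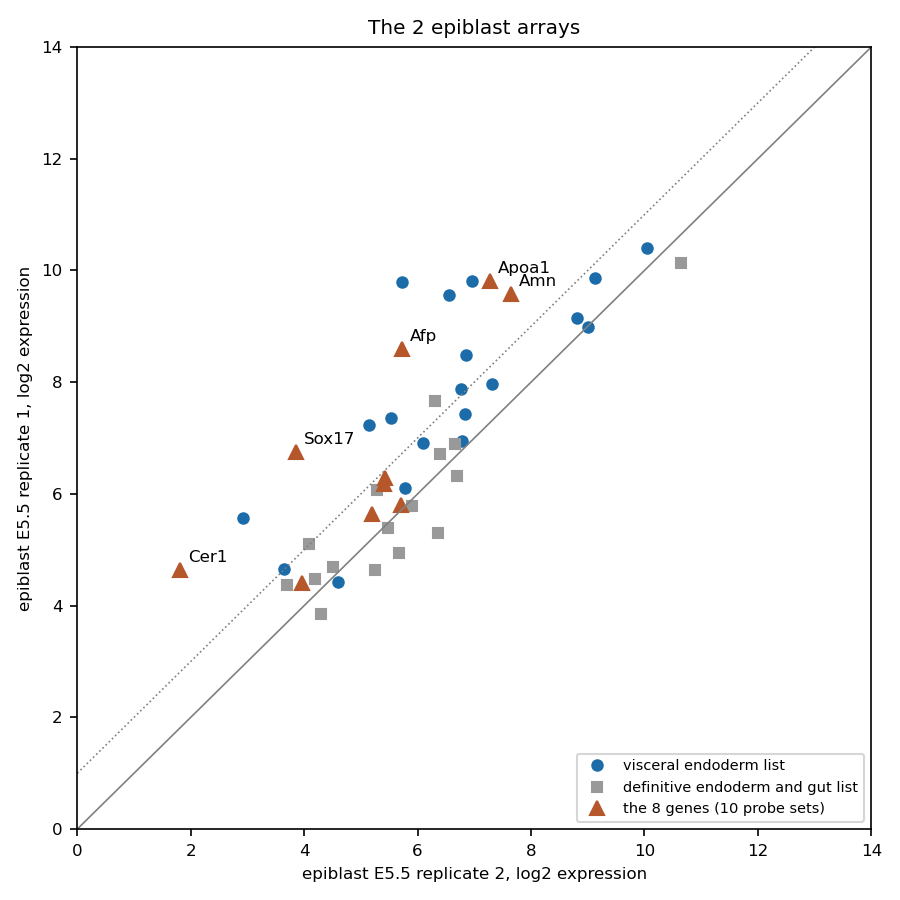
Log2 expression on epiblast replicate 1 (vertical axis) against replicate 2 (horizontal axis) for the visceral endoderm list (blue circles), the definitive endoderm list (grey squares) and 10 probe sets of the 8 genes (brown triangles), with lines of equality (solid) and 2-fold excess (dotted). In 9 of 19 visceral endoderm genes, in Apoa1 and Amn, and on the labelled sets of Afp (1416645_a_at), Cer1 (1450256_at) and Sox17 (1429177_x_at), replicate 1 lies above the dotted line; the second Cer1 set, not plotted, has the opposite order, at 1.75 and 2.89.

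Across the list, 8 of 19 visceral endoderm genes were higher in epiblast than in ESCs and 3 were lower, beside 7.58% and 9.43% of all genes. Amot rose by 4.36, the carrier protein gene Ttr by 3.97, and Cubn, which encodes the receptor that Amn binds, by 3.97. Against 48 h EpiLCs 8 were higher and 2 lower (1.45% and 3.29% of all genes), with Ttr up by 3.69 and the Nodal antagonist Lefty1 changed by -5.0. From epiblast to PGCs 7 fell and 1 rose (6.90% and 8.90% of all genes), Apoa4 by -4.25 and Cubn by -1.91, alongside the fall of Apoa1. Afp did not fall there: its change on 1416645_a_at was 1.13 with an interval of -0.29 to 2.55. The E9.5 PGC arrays also held embryonic globin, Hba-x at 11.44 to 12.56 against at most 4.98 on all other arrays. The endothelial and blood list summed to 4511 to 9224 there and to 374 to 409.8 in epiblast, and the part of other cells in the Afp signal of PGCs was not tested.

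The nearest patterns among tested genes, by Pearson correlation over 16 group means, were Chn2 (0.916), Thbs1 (0.882) and Chrd (0.881) for Foxa2. For Foxa2 this rests mostly on the parental group, since the Spearman correlations were 0.588, 0.424 and 0.076. Gata6 was nearest to the Wnt receptor gene Fzd1 (0.900), Bmp1 (0.893) and Itm2c (0.888). Apoa1 was nearest to Ttr (0.955), Spink1 (0.931) and Cubn (0.930), each with a Spearman correlation of 0.506 to 0.547. Amn was nearest to Acsbg1 (0.886), Zfp874a (0.871) and Slc25a31 (0.870). Gata4 was nearest to Dtx3l (0.848) and Cer1 to Axl (0.824). Groups share cell lines and amplification, so these are descriptions.

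0 of the 8 genes passed the test between 36 h EpiLCs and BP14A ESCs (14.6% of genes were called), between days 2 and 4 of BP14A cells (1.43%), between day 6 Ck-PGCLCs and 48 h EpiLCs (18.6%), and in the difference of the 2 routes' changes from day 2 to day 4 (11.8%). At an unadjusted p under 0.05, limma gave 0, 1, 2 and 1 of the 8 in these comparisons.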

How the data were processed

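Gene expression was measured on 32 1-colour Affymetrix arrays. The values the authors deposited are log2 signals, 1 per probe set and array, from 0 to 14.59; the scale was read from the values, and how probe sets were summarised and normalized is not stated in the labels or the table. Array medians ran from 4.62 to 4.78, so the arrays were quantile normalized, which hides changes in total RNA. Of 45101 probe sets, 64 controls were left out, 34945 had 1 symbol in the platform annotation and 34741 of these matched RefSeq genes. Arrays give no count depth; their number limits the precision.

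The model was fitted to the 32 arrays with limma 3.58.1 (R 4.3.3; package data.table, version 1.17.8) with 16 group means and 16 residual degrees of freedom. A gene was called at a Benjamini-Hochberg adjusted p under 0.05 over 15497 genes and at least 2-fold; errors beside means are SDs, and SEs and 95% intervals come from the model. There were 21 comparisons. Probe sets were also fitted singly (32702). The script was tested on simulated data.

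The named genes are the 8 genes, called list members with large changes, and the 3 tested genes with the highest Pearson correlation to each. Members, lists and tests were chosen with earlier results of these data known, and the endoderm lists overlap with primitive streak and epiblast genes. Same-numbered arrays deviated together at correlations from 0.24 to 0.52 in all pairs of the earlier groups, so the numbers pair them there, and from -0.22 to 0.48 in the new groups, where they share only a number. Alternatives were other normalizations, filters, probe set rules, thresholds, a moderated fit with trend and robust options, a replicate block, fewer arrays and leaving out each array.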

Additional observations from a re-analysis of the deposited data

How the results depend on the processing

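No change of a gene that was called in the main fit or in an alternative reversed in sign between the 2. Signs of changes called in neither were not counted. Outside the omission of arrays, 312 of 328 values of called changes kept their call and 16 lost it; on leaving out 1 array, 104 of 136 did and 32 lost it. The number of the 8 genes called changed by over 1.5 times as follows. At an adjusted p under 0.01 it went from 2 to 1 for Ck-PGCLCs against parental cells on day 2, from 3 to 1 for epiblast against 48 h EpiLCs, and to 0 for Ck-PGCLCs from day 2 to day 4, BP14A ESCs with doxycycline and day 6 Ck-PGCLCs against PGCs. With no fold limit it was 5 for epiblast against EpiLCs, 1 for day 6 Ck-PGCLCs against EpiLCs and 2 for PGCs against epiblast. With any probe set of a gene, chosen after seeing the data, it was 4 for P14A against parental cells, 1 for day 6 Ck-PGCLCs against EpiLCs and 2 against PGCs. With the mean of all probe sets it was 0 for day 2 Ck-PGCLCs against EpiLCs and for BP14A against Ck-PGCLCs on day 4, 1 for day 6 Ck-PGCLCs against EpiLCs and 2 against PGCs; averaging put Gata6 under the filter. The deposited values gave 5 for epiblast against EpiLCs, the 60th percentile filter 1 for Ck-PGCLCs against parental cells, and no filter 0 for day 6 Ck-PGCLCs against PGCs. Fits of the new or earlier arrays alone gave 2 for day 2 Ck-PGCLCs against EpiLCs, 1 for the difference of the routes (Amn, adjusted p 0.045) and 0 for 48 h EpiLCs against ESCs. Where no cause is named, the cause was not tested.

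On leaving out each array in turn the counts ran from 2 to 3 for parental cells against EpiLCs, 1 to 1 for Ck-PGCLCs against parental cells, 0 to 1 for Ck-PGCLCs from day 2 to day 4, BP14A ESCs with doxycycline and 48 h EpiLCs against ESCs, 2 to 3 for BP14A, BP14 and P14 against parental cells and BP14A against Ck-PGCLCs on day 2, 3 to 5 for epiblast against ESCs, 1 to 3 for epiblast against EpiLCs, 1 to 4 for PGCs against epiblast and 0 to 0 for day 6 Ck-PGCLCs against PGCs. A lone array left in a group is assumed to vary like the others. The replicate block lost no call and added 3 in the new arrays, for Amn in parental cells against EpiLCs (-1.22, adjusted p 0.0333) and for Cer1 in BP14 (-1.67) and P14 (-1.92) against parental cells. Group means under log2 4.05 limit how well the size of a difference is known for Cer1, Afp, Apoa1, the second Sox17 probe set and Foxa2 against 36 h EpiLCs or day 2 BP14A cells.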

Other observations

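Genes of the primitive and parietal endoderm, the layers laid down before gastrulation, did not move as a block. Of 16 tested genes, 3 rose and 2 fell in parental cells against EpiLCs and 4 rose and 0 fell in day 2 Ck-PGCLCs, beside 7.23% and 5.63%, and 8.42% and 6.06%, of all genes, with Snai1 up by 3.32 and Sox7, a relative of Sox17, up by 1.50. In BP14A cells on day 2, against parental cells, the basement membrane collagen genes Col4a1 and Col4a2 differed by -3.88 and -3.60, while Srgn rose by 3.68 and Sox7 by 2.04. Against 48 h EpiLCs the epiblast was higher in 6 of 16 and lower in 0 (1.45% and 3.29% of all genes), with Srgn up by 5.75 and Lama1 by 3.63.

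Trophoblast-linked genes gave mixed changes. Of 8 tested, 3 rose and 2 fell in day 2 Ck-PGCLCs (8.42% and 6.06% of all genes), with Gata3, a relative of Gata4 and Gata6, up by 6.35 and Krt8 by 3.58, and Krt8 rose by the same 3.58 in parental cells. Ligands of the TGF-beta family differed between these 2 groups: Bmp4 was 4.02 higher in Ck-PGCLCs than in parental cells and Bmp2 differed by -1.70.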
